A study of Homo sapiens with 12 samples.

Results

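The miR-506 to miR-514 cluster was measured on 12 miRNA PCR arrays of OCI-My5 multiple myeloma cells. All assays of the array for hsa-miR-506 to hsa-miR-510, hsa-miR-513a, hsa-miR-513b, hsa-miR-513c and hsa-miR-514a were taken, either arm of the hairpin, and 5 assays met this rule on an array of 384 wells, 12 of them control wells. They were hsa-miR-506-3p, hsa-miR-508-5p, hsa-miR-509-3p, hsa-miR-513a-5p and hsa-miR-514a-3p. The cluster was chosen by the normalized Ct of the un-treated cells, in which My5.CRBN had less miR-513a-5p and miR-508-5p than My5.LV did. That difference is given as a description and was not tested.

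The cells were 2 derivatives of OCI-My5, a human myeloma line with little CRBN of its own. My5.LV cells (My5/LV in the labels) carry the lentiviral vector, have a low level of CRBN and are IMiD-resistant. My5.CRBN cells (My5/CRBN) carry CRBN cDNA in a lentivirus, have a high level of CRBN and are IMiD-sensitive. CRBN, or cereblon, is the substrate receptor of a ubiquitin ligase and the target of lenalidomide, an immunomodulatory drug (IMiD). Each line was assayed un-treated, with an shRNA against AGO2 (sh72 in the labels, where AGO2 is called EIF2C2), with AGO2 cDNA, with lenalidomide at 10 μM for either 72 or 120 hours, and with AGO2 cDNA plus lenalidomide for 72 hours. Both the shRNA and the cDNA were delivered by lentivirus. Per the labels, the un-treated cells received neither knockdown, nor overexpression, nor drug, so the infection itself is not matched in them. Each of the 12 combinations had 1 array, and each line was 1 infected population rather than several independent ones.

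miRNAs of this cluster are cut from hairpin transcripts, and 1 strand of each duplex is loaded into an Argonaute protein such as AGO2. The seed of the loaded strand pairs with target mRNAs, which are then repressed. The cluster lies on the X chromosome, evolves fast and has expanded in primates, and it is known for high expression in testis and for altered expression in several tumours, melanoma among them.

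In RefSeq (GRCh38.p14) the hairpins of the named miRNAs are 14 genes over 95.02 kb of the minus strand, chrX:147189704-147284728. A long non-coding RNA locus, LOC105373347, spans 10 of the 14 hairpins, and a second, LOC101928863, spans 1. Whether a hairpin is exonic or intronic in them was not analysed here. In the direction of transcription the MIR514A hairpins come first and MIR513C last. miR-506-3p and miR-508-5p each come from 1 hairpin, MIR506 (chrX:147230720-147230843) and MIR508 (chrX:147236913-147237027). miR-513a-5p comes from 2 hairpins, MIR513A1 (chrX:147213463-147213591) and MIR513A2 (chrX:147225826-147225952). miR-509-3p comes from 3 hairpins, from chrX:147258760 to 147260625, and miR-514a-3p from 3, from chrX:147279247 to 147284728. An assay of these miRNAs therefore gives the sum over its hairpins.

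The mature sequences show what each assay was aimed at. They are RefSeq sequences, written 5′ to 3′, with the seed (bases 2 to 8) in capitals.
miR-506-3p: uAAGGCACccuucugaguaga
miR-508-5p: uACUCCAGagggcgucacucaug
miR-509-3p: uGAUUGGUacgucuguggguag
miR-513a-5p: uUCACAGGgaggugucau
miR-514a-3p: aUUGACACuucugugaguaga

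The assays of miR-508-5p and miR-513a-5p are of 5p arms and the other 3 of 3p arms. No seed was shared among these 5, or with any other of the 330 array assays that matched a RefSeq mature name. miR-506-3p and miR-514a-3p shared a run of 8 bases, ugaguaga, that starts at base 14 in each. Other pairs shared runs of 3 to 6 bases. Close relatives without an assay on the array differ from members by few bases, and they are shown because an assay may not separate them.
miR-513b-5p: uUCACAAGgaggugucauuuau
miR-513c-5p: uUCUCAAGgaggugucguuuau
miR-514b-3p: aUUGACACcucugugagugga

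Counting from the 5′ end and giving the member's base first, miR-513b-5p differs from miR-513a-5p by G7A over the 18 bases of miR-513a-5p. miR-513c-5p differs from it by A4U, G7A and A17G. miR-514b-3p differs from miR-514a-3p by U9C and A19G over 21 bases. How far the assays amplify these relatives is not given in the sources used here.

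For each well the deposited value is its threshold cycle (Ct), and a higher Ct is a lower level. The normalized Ct used below is the Ct, set to 35 where it was higher or undetermined, minus the mean Ct of 6 small-RNA control wells of the same array. The log2 fold change between a pair of arrays is the difference of their normalized Ct. On each array 324 to 367 miRNAs came up before cycle 35, and the small-RNA wells averaged Ct 18.7 to 21.9. The array with the latest control wells and fewest miRNAs under 35 was that of My5.CRBN cells with AGO2 cDNA. With 1 array per combination, a single difference has no replicate check. Its spread is given as the SD over the 6 control wells of their own log2 fold changes. Between the 2 wells of an assay on the same array, the root mean square difference was 0.383 cycles for the positive PCR control (median Ct 18.9), 0.187 for the reverse transcription control (median Ct 23.3) and 1.43 for cel-miR-39 (median Ct 34.5). Ct was capped at 35 in these wells too, so the value for cel-miR-39 may be too small. The median Ct of 4 of the 5 members was 28.8 to 30.8 and that of miR-514a-3p 33.2, and no assay in duplicate wells had a median between 23.3 and 34.5.

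miR-513a-5p had the earliest Ct of the 5 assays on every My5.LV array, and its level was lower in My5.CRBN cells in every condition. Its normalized Ct in My5.LV cells was 6.97 un-treated, 9.19 with AGO2 shRNA, 7.72 with AGO2 cDNA, 7.33 and 6.08 after 72 and 120 hours of lenalidomide, and 7.76 with AGO2 cDNA and lenalidomide. In My5.CRBN cells the values in the same order were 10.51, 10.63, 10.91, 9.74, 10.11 and 11.68. The highest level in My5.CRBN cells (lenalidomide for 72 hours) was below the lowest level in My5.LV cells (AGO2 shRNA), with a gap of 0.54 cycles between them. Elsewhere in the order of levels neighbouring arrays were 0.04 to 0.89 cycles apart, except for a step of 1.43 between My5.LV cells with AGO2 cDNA plus lenalidomide and those with AGO2 shRNA. The range over the 12 arrays, 5.60 cycles, was the 9th largest among 314 miRNAs detected before cycle 35 on every array, whose median range was 2.43. That range spans both lines and includes the un-treated pair, whose difference chose miR-513a-5p, so the choice itself favours a wide one. Within a line the range was 3.12 cycles for My5.LV and 1.94 for My5.CRBN.

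**Figure D1:**
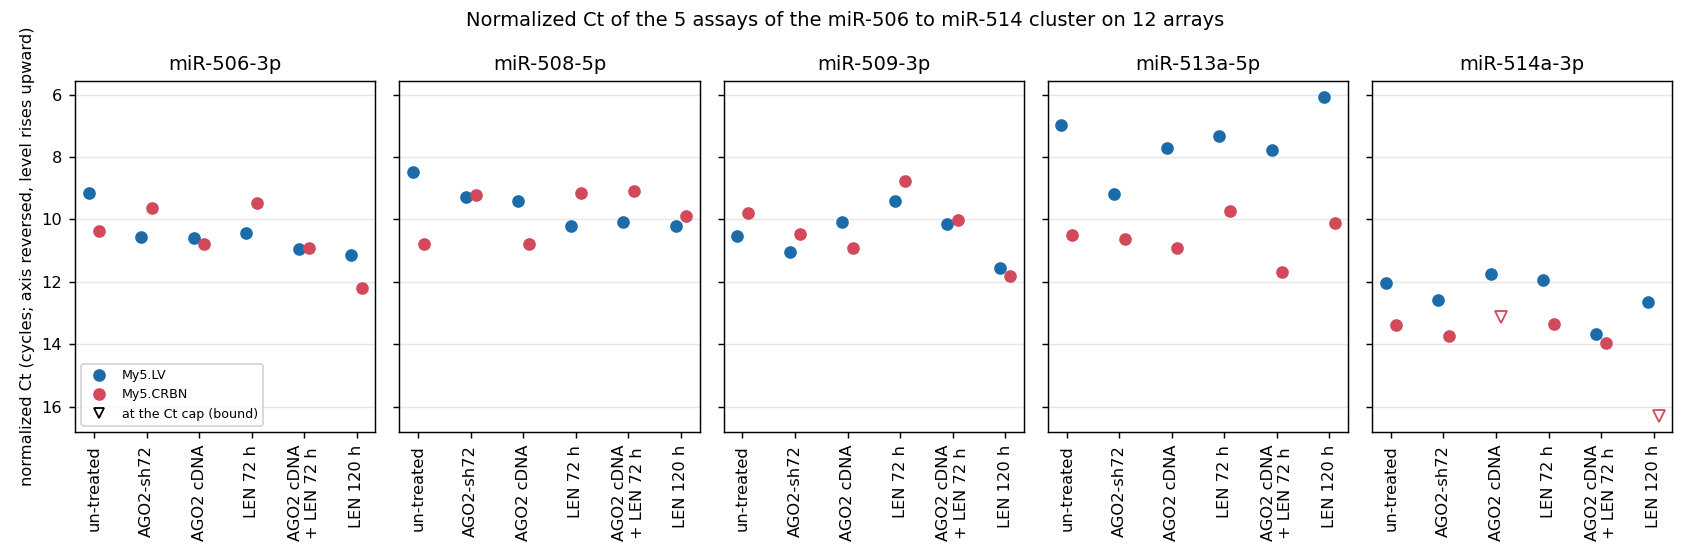
Normalized Ct in cycles (reversed axis, so a higher level is further up) of each assay on each of the 12 arrays, My5.LV in blue and My5.CRBN in red, 1 array per point. Open triangles are wells at the Ct cap, where the level is at or below the point. The lines are separate for miR-513a-5p, with 9.19 as the lowest My5.LV level and 9.74 as the highest My5.CRBN level, and they overlap for the other 4 assays.

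The difference between the lines was tested over the 5 treated conditions, whose values the choice of the cluster did not use. These arrays derive from the same 2 infected populations as the un-treated pair, so they are not an independent check of the choice. The test measures the spread between conditions and not that between infected populations. In limma with the condition as a block (10 arrays), the log2 fold change of My5.CRBN over My5.LV was averaged over the conditions and set against its variation between them. miR-513a-5p fell by 3.00 on the log2 scale in My5.CRBN cells (SE 0.40, adjusted p = 0.00663 over 362 assays tested). It was lower in 5 of 5 conditions, by 2.71 fold with AGO2 shRNA, 9.16 fold with AGO2 cDNA, 5.29 and 16.4 fold after 72 and 120 hours of lenalidomide, and 15.1 fold with AGO2 cDNA plus lenalidomide. Over all assays the median log2 fold change in these pairs was 0.22, -0.46, 0.42, -0.001 and 0.17 in the same order. The shares of all assays at least 3 fold lower were 0.826%, 9.52%, 0.543%, 6.54% and 1.92%. The un-treated difference, which chose miR-513a-5p, was 11.7 fold, and 2 of the 5 assays were past 3 fold there by the choice itself, beside 1.96% of all assays. miR-513a-5p had the lowest log2 fold change of the 362 assays and was the 1 assay called lower in My5.CRBN cells (0.276%). Another 3 assays were called higher (0.829%), and they were miR-143-3p, miR-223-3p and miR-22-3p.

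The call on miR-513a-5p was lost when 1 of the 5 pairs was left out. Without the pair of arrays at 120 hours of lenalidomide the log2 fold change was -2.74 with an adjusted p of 0.0587 in limma. An exact two-sided sign-flip test of the 5 differences gave p = 0.0625, the smallest that 5 pairs allow. Across the 5 treated arrays of each line, the levels did not overlap for miR-513a-5p, and 2 of the 362 assays were below in this way (0.552%), miR-504-5p being the other. With the un-treated arrays added, miR-513a-5p was the 1 assay of 362 (0.276%) whose My5.CRBN arrays all lay below the My5.LV arrays, although this count includes the pair that chose it.

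miR-514a-3p, the assay with the latest Ct of the 5 on every array, was below its My5.LV level in My5.CRBN cells in 5 of 5 treated conditions without passing the test. In My5.LV cells the normalized Ct was 12.03 un-treated, 12.57 with AGO2 shRNA, 11.74 with AGO2 cDNA, 11.93 and 12.65 after 72 and 120 hours of lenalidomide, and 13.66 with AGO2 cDNA plus lenalidomide. In My5.CRBN cells it was 13.37, 13.74, 13.14, 13.33, 16.30 and 13.95 in the same order, and the lines overlapped. The wells with AGO2 cDNA (Ct 35.4) and with 120 hours of lenalidomide (Ct 35.7) were at the cap, so these 2 My5.CRBN levels are upper limits. The level in My5.CRBN cells was at least 12.6 fold lower after 120 hours of lenalidomide, at least 2.63 fold lower with AGO2 cDNA, 2.65 fold lower after 72 hours of lenalidomide, 2.24 fold lower with AGO2 shRNA and 1.23 fold lower with AGO2 cDNA plus lenalidomide. The limma log2 fold change, with the 2 capped wells at their cap, was -1.58 (SE 0.44, unadjusted p = 0.00666, adjusted p = 0.161). It had the 3rd lowest log2 fold change of the 362 assays. In un-treated cells it was 2.53 fold lower, the nearest member short of 3 fold, and miR-508-5p, 4.94 fold lower, was the nearest member past it.

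miR-508-5p, the other assay that chose the cluster, did not keep its difference in the treated cells. Its normalized Ct in My5.LV cells was 8.48 un-treated, 9.27 with AGO2 shRNA, 9.41 with AGO2 cDNA, 10.20 and 10.21 after 72 and 120 hours of lenalidomide, and 10.09 with AGO2 cDNA plus lenalidomide. In My5.CRBN cells the values in this order were 10.78, 9.23, 10.78, 9.15, 9.88 and 9.09. The un-treated My5.LV array thus had the highest of the 12 levels and the un-treated My5.CRBN array the lowest. Between the lines the log2 fold changes (My5.CRBN over My5.LV) were 0.04 with AGO2 shRNA, -1.37 with AGO2 cDNA, 1.04 and 0.33 after 72 and 120 hours of lenalidomide, and 0.99 with AGO2 cDNA plus lenalidomide. The limma average of the 5 was 0.21, with a 95% interval from -0.65 to 1.07 (adjusted p = 0.941). The un-treated difference of -2.31 was outside this interval, and a difference between the un-treated and treated pairs was not tested.

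miR-506-3p and miR-509-3p showed no difference between the lines that could be told from its variation between conditions. For miR-506-3p the normalized Ct in My5.LV cells was 9.16 un-treated, 10.58 with AGO2 shRNA, 10.61 with AGO2 cDNA, 10.43 and 11.13 after 72 and 120 hours of lenalidomide, and 10.95 with AGO2 cDNA plus lenalidomide. In My5.CRBN cells it was 10.35, 9.64, 10.78, 9.47, 12.18 and 10.91 in that order. The 6 levels of each line overlapped over most of their range. The limma log2 fold change of My5.CRBN over My5.LV was 0.14 (SE 0.34, 95% interval -0.64 to 0.93, adjusted p = 0.958).

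For miR-509-3p the normalized Ct in My5.LV cells was 10.52, 11.04, 10.10, 9.41, 11.56 and 10.14 in the order used for miR-506-3p. In My5.CRBN cells it was 9.79, 10.45, 10.92, 8.78, 11.81 and 10.01. The highest level of each line was at 72 hours of lenalidomide and the lowest at 120 hours. The limma log2 fold change between the lines was 0.05 (SE 0.29, 95% interval -0.61 to 0.72, adjusted p = 0.988).

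**Figure D2:**
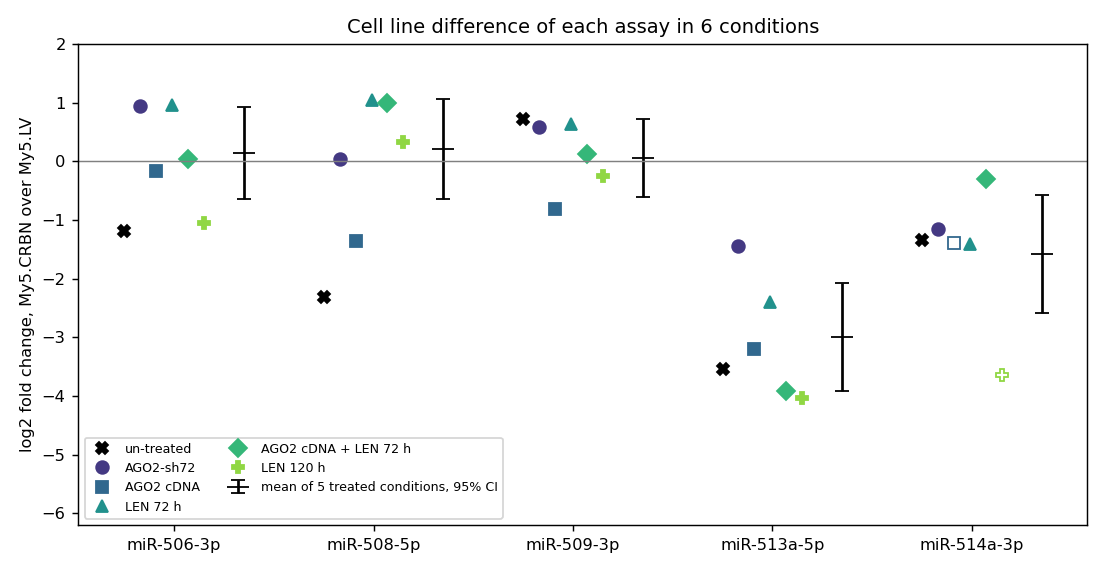
Log2 fold change of My5.CRBN over My5.LV for each assay in each of 6 conditions (1 pair of arrays per point, the un-treated pair as a black cross, open symbols where the My5.CRBN well was at the cap) with the limma average of the 5 treated conditions and its 95% interval. The average lies at -3.00 for miR-513a-5p and -1.58 for miR-514a-3p, and between 0.05 and 0.21 for the other 3 assays.

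Within the cluster, then, 1 of 5 assays was called lower in My5.CRBN cells and 2 had an unadjusted p under 0.05, beside 45 of all 362 assays, with a median log2 fold change of 0.05 over the 5, against 0.02 over all 362 assays. By position, the hairpins of miR-513a-5p and those of miR-514a-3p stand toward opposite ends of the cluster. Those of miR-506-3p, miR-508-5p and miR-509-3p stand between them. Between MIR506 and MIR513A2 lie 4767 bases. Another 30 array assays outside the cluster have a hairpin on the X chromosome, though some may also come from hairpins elsewhere. Their median line difference was -0.06, with 0 called lower and 1, miR-223-3p, called higher. miR-888-5p, the assay of the nearest other X-linked group, had a log2 fold change of -0.20 (SE 0.45, adjusted p = 0.953).

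**Figure D3:**
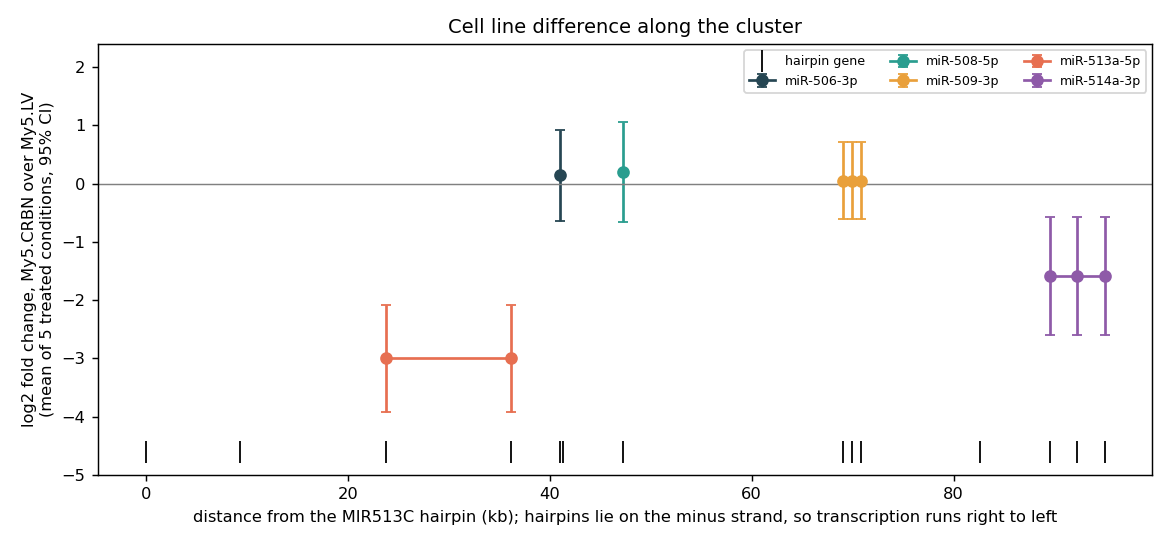
Limma log2 fold change of My5.CRBN over My5.LV (5 treated conditions, error bars 95% interval) drawn at the hairpins that give each assay, against their distance in kb from the MIR513C hairpin, with all 14 hairpin genes as ticks. An assay with several hairpins has 1 value, repeated at each and joined by a line. miR-513a-5p lies at -3.00 next to miR-506-3p at 0.14, and miR-514a-3p at -1.58 stands at the other end.

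The question put to the treated cells was whether lowering or raising AGO2, or lenalidomide, moved the cluster. The condition differences were tested in limma over both lines (12 arrays, the line as a block), against the difference between the lines in their response. They reuse the un-treated arrays that chose miR-508-5p and miR-513a-5p, and all share these controls. 0 of the 5 assays were called in any of the 5 contrasts, and the test says nothing about 1 line alone.

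After 120 hours of lenalidomide 3 of the 5 assays had lower levels with an unadjusted p under 0.05, beside 84 of all 362 assays in either direction, and none of the 3 passed after adjustment. The limma log2 fold changes were -1.90 for miR-506-3p (SE 0.57, adjusted p = 0.0741), -1.53 for miR-509-3p (SE 0.45, adjusted p = 0.0696) and -1.77 for miR-514a-3p (SE 0.65, adjusted p = 0.137, 1 My5.CRBN well at the cap). miR-508-5p had -0.41 and miR-513a-5p 0.64, with adjusted p of 0.792 and 0.559. Over all assays 26 of 362 were called lower (7.18%) and 3 higher (0.829%), with a median of -0.03, against a median of -1.53 over the 5 assays. Leaving out the My5.LV array at 120 hours, miR-514a-3p had -3.04 with an adjusted p of 0.0150, from the My5.CRBN array alone, in which its well was at the cap. With a Ct cap of 32, miR-506-3p and miR-509-3p passed the test with adjusted p of 0.0424 and 0.0169.

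In single arrays, miR-506-3p was 3.90 fold lower at 120 hours of lenalidomide than un-treated for My5.LV and 3.54 fold lower for My5.CRBN. For miR-509-3p the level was 2.06 fold lower in the My5.LV pair and 4.07 fold lower in the My5.CRBN pair. For miR-514a-3p it was 1.54 fold lower in the former and at least 7.62 fold lower in the latter. Past 3 fold lower were 2 of the 5 assays in the My5.LV pair (miR-506-3p and miR-508-5p), beside 14.6% of all assays, and 3 in the My5.CRBN pair, beside 11.0%. The SD over control wells was 0.41 for the former pair and 0.22 for the latter. miR-506-3p and miR-508-5p both had their highest level in the un-treated My5.LV array, so every treated My5.LV array lay below it. That array is also among those that chose miR-508-5p.

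The 2 durations of lenalidomide share no array with each other. From 72 to 120 hours the level of miR-509-3p was 4.45 fold lower for My5.LV and 8.18 fold lower for My5.CRBN. In My5.CRBN cells miR-506-3p was 6.55 fold lower and miR-514a-3p at least 7.81 fold lower, so that 3 of 5 assays were past 3 fold, beside 22.2% of all assays. In My5.LV cells miR-509-3p was the 1 of 5, beside 12.1%. miR-513a-5p had log2 fold changes of 1.25 for My5.LV and -0.38 for My5.CRBN between these times. The median over all assays was 0.01 for My5.LV and -0.41 for My5.CRBN.

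At 72 hours of lenalidomide the limma contrast called 0 of 362 assays over both lines, with 18 at an unadjusted p under 0.05. miR-509-3p was one of them, with a log2 fold change of 1.06 (SE 0.45, adjusted p = 0.911), from 1.11 for My5.LV and 1.01 for My5.CRBN. In My5.LV cells miR-508-5p was 3.29 fold lower than un-treated, as 1 of 5 assays beside 0.549% of all, and in My5.CRBN cells it was 3.09 fold higher, beside 10.1% of all. Both of these values rest on the un-treated arrays that chose miR-508-5p. miR-513a-5p had -0.37 for My5.LV and 0.77 for My5.CRBN, where the median over all assays was 0.32. miR-514a-3p had 0.10 and 0.04.

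With AGO2 shRNA 107 of 362 assays were called lower over both lines (29.6%) and 3 higher (0.829%), while 0 of the 5 were called. The median log2 fold change over all assays was -0.63, and that of the 5 assays was -0.46. With the mean Ct of the miRNAs as normalizer, which takes this shift out, 11 of the 362 assays were called and again 0 of the 5, and the values of miR-506-3p, miR-509-3p and miR-514a-3p changed from below to above 0. The largest value of the 5 was that of miR-513a-5p, -1.18 (SE 0.60, adjusted p = 0.174), made of -2.23 for My5.LV and -0.12 for My5.CRBN. In My5.LV cells this is 4.69 fold lower, the 1 of the 5 assays past 3 fold, beside 24.2% of all assays, and the median over all assays there was -0.81. In My5.CRBN cells 0 of the 5 were past 3 fold, beside 13.3% of all assays lower and 1.67% higher, and the median was -0.58. miR-508-5p was 2.94 fold higher there, and miR-506-3p 1.64 fold higher. The values of miR-513a-5p and miR-508-5p rest on the un-treated arrays that chose these assays.

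Neither AGO2 cDNA alone nor AGO2 cDNA with lenalidomide gave a call on any of the 362 assays, with 36 and 27 at an unadjusted p under 0.05 in limma and none of the 5 among them. With AGO2 cDNA alone the log2 fold changes of the 5 ran from -1.44 (miR-506-3p) to 0.42 (miR-509-3p) in My5.LV cells. In My5.CRBN cells they ran from -1.13 (miR-509-3p) to 0.01 (miR-508-5p), without miR-514a-3p, whose well was at the cap. 0 of the 5 assays reached 3 fold, beside 0.824% of all assays lower and 6.04% higher for My5.LV, and 6.55% lower and 2.28% higher for My5.CRBN. Between AGO2 cDNA and AGO2 shRNA, arrays that do not rest on the un-treated cells, miR-513a-5p was 2.78 fold higher with the cDNA for My5.LV and 1.21 fold lower for My5.CRBN. 0 of the 5 were past 3 fold in that contrast, beside 23.0% of all assays higher for My5.LV and 10.6% for My5.CRBN.

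With AGO2 cDNA and lenalidomide together, 3 of the 5 assays were below un-treated My5.LV cells by 3 fold or more, beside 5.21% of all assays. They were miR-506-3p (3.45 fold), miR-514a-3p (3.09 fold) and miR-508-5p (3.05 fold), and the control wells had their widest spread in this pair of arrays, an SD of 0.67. In My5.CRBN cells miR-508-5p was 3.23 fold higher, the 1 of 5 past 3 fold, beside 4.41% of all assays higher. Both counts include miR-508-5p, whose values rest on the un-treated arrays that chose it. miR-513a-5p had -0.80 for My5.LV and -1.17 for My5.CRBN. In limma over both lines its log2 fold change was -0.98 (adjusted p = 0.913), and those of miR-506-3p and miR-514a-3p were -1.17 and -1.11 (adjusted p = 0.739 and 0.906).

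**Figure D4:**
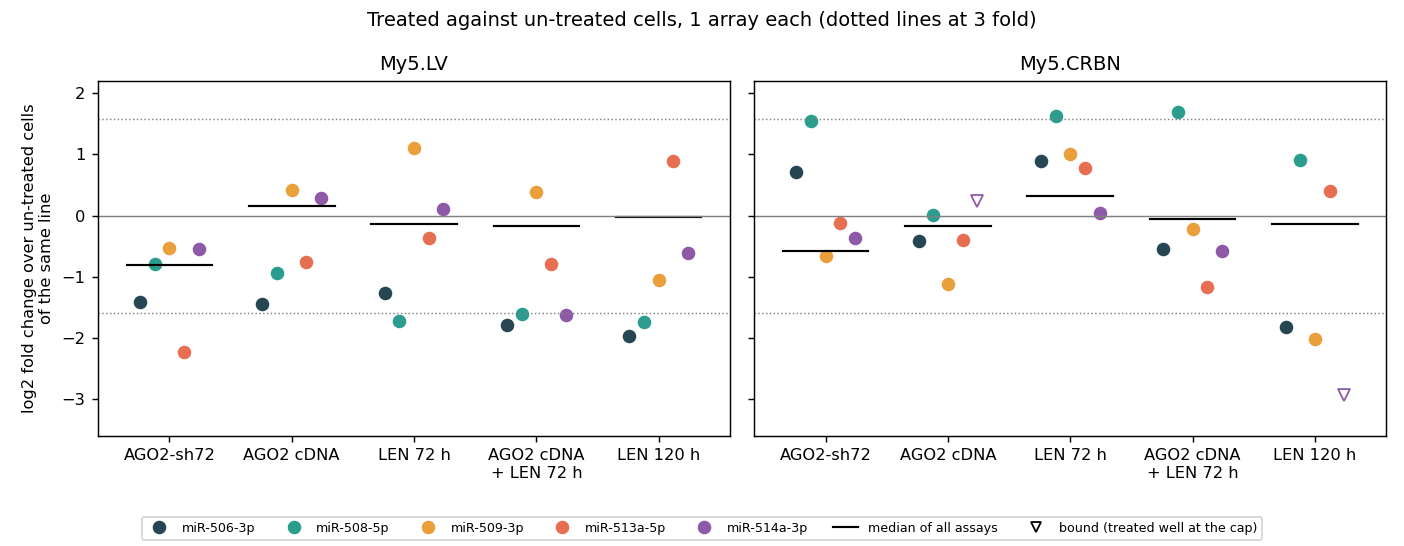
Log2 fold change of each assay in treated over un-treated cells of the same line (My5.LV left, My5.CRBN right), 1 pair of arrays per point, with the median of all assays as a black bar and dotted lines at 3 fold. Open triangles are bounds, where the treated well was at the cap. At 120 hours of lenalidomide miR-506-3p lies at -1.97 and -1.83, and with AGO2 shRNA miR-513a-5p lies at -2.23 for My5.LV and -0.12 for My5.CRBN.

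The members differed in their pattern over the 12 arrays. Between miR-513a-5p and miR-514a-3p the Pearson r of the levels was 0.57 (Spearman rho 0.69), but the lines are apart for miR-513a-5p, and within a line r was 0.11 over the 6 My5.LV arrays and -0.20 over the 6 My5.CRBN arrays. miR-513a-5p had r of 0.09, 0.07 and -0.09 with miR-506-3p, miR-508-5p and miR-509-3p. Among the other pairs the highest was that of miR-506-3p and miR-509-3p, 0.59, with 0.21 within My5.LV and 0.80 within My5.CRBN. These are descriptions of 12 arrays that share their normalizer, and 10 pairs were computed.

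For each member the 3 most similar miRNAs were found by Pearson r over the 12 arrays among the assays under Ct 35 on all of them. No other member of the cluster was in any of these lists, although miR-514a-3p, with wells at the cap, could not enter those of the others. For miR-513a-5p they were miR-200b-3p (0.82), miR-200c-3p (0.80), both of the miR-200 family known for keeping cells epithelial, and miR-218-5p (0.73). Within My5.LV arrays r was 0.97 with miR-200b-3p and 0.93 with miR-200c-3p, and within My5.CRBN arrays it was -0.04 and -0.13. For miR-514a-3p they were miR-504-5p (0.85) and miR-888-5p (0.73), both also from the X chromosome, and miR-376a-3p (0.68). Without the 2 arrays farthest from the median of miR-514a-3p these were 0.84, 0.27 and -0.17. For miR-506-3p they were miR-382-5p (0.90), miR-196b-5p (0.86) and miR-298 (0.83). For miR-509-3p they were miR-581 (0.89), miR-212-3p (0.85) and miR-186-3p (0.84). For miR-508-5p they were miR-23b-5p (0.77), miR-302a-3p (0.76) and miR-127-3p (0.73).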

How the data were processed

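Per the methods, total RNA (miRNeasy Mini kit) was converted to cDNA with the miScript II reagents and measured on miScript miRNA PCR Arrays. As deposited by the authors, the table used here holds the raw Ct of each well, without normalization. A deposited table of fold changes against un-treated My5.LV cells holds the authors' own comparisons and was not used. The members and lists were chosen with earlier results of these data known.

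Ct was capped at 35 and the mean of the wells for RNU6-2 and for SNORD61, SNORD68, SNORD72, SNORD95 and SNORD96A was taken off. A well at the cap gives a bound, and a comparison with both wells at the cap has no value. Differences of at least 3 fold were counted. limma 3.58.1 (R 4.3.3; lmFit and eBayes) was fitted over the 362 assays under the cap on at least 0.5 of the arrays, with Benjamini-Hochberg adjustment at 0.05. All members were named, and similar miRNAs by the 3 highest Pearson r. Arrays are labelled as 1 sample per group, so p-values measure only the spread between conditions and lines. The number of arrays limits the precision. The fits were also run on simulated data with equal spread in all assays and no capped wells. That run does not cover assays near the cap, such as miR-514a-3p. Alternatives were 3 other normalizers, a cap of 32, no filter, no block, only wells under the cap, a sign-flip test and leaving out arrays. Sequences and positions came from RefSeq (GRCh38.p14), in which 330 of 372 names matched. Other software was Python 3.11.15 with SciPy 1.17.1, pandas 2.3.3, NumPy 2.4.6 and Matplotlib 3.10.9.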

Additional observations from a re-analysis of the deposited data

Results flagged for a closer look

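In 8 of the 25 combinations of an assay and a treatment, My5.LV and My5.CRBN cells moved in opposite directions from un-treated cells, each by more than the SD of the control wells. The share over all assays is not given here, so the count cannot be read as particular to the cluster. These differences between the lines were not tested, since each rests on 1 array per line and condition, and each set uses the same un-treated arrays. For miR-508-5p the log2 fold changes in My5.LV and My5.CRBN cells were -0.79 and 1.55 with AGO2 shRNA, -1.72 and 1.63 after 72 hours of lenalidomide, -1.73 and 0.91 after 120 hours, and -1.61 and 1.69 with AGO2 cDNA plus lenalidomide. The un-treated arrays are the ones that chose miR-508-5p, with the highest level of the 12 in My5.LV and the lowest in My5.CRBN, so a treated array of either line had to lie on the side it did.

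For miR-506-3p, highest in the same un-treated My5.LV array, the values were -1.41 and 0.72 with AGO2 shRNA and -1.27 and 0.89 after 72 hours of lenalidomide. For miR-509-3p they were 0.42 and -1.13 with AGO2 cDNA. For miR-513a-5p they were -0.37 and 0.77 after 72 hours of lenalidomide. No cell line and condition had more than 1 array, so no single array could be compared with others of its group.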

How the results depend on the processing

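The log2 fold change of miR-513a-5p between the lines ran from -3.39 to -2.74 over the main and alternative fits of the treated pairs, with adjusted p from 0.00185 to 0.0587. With the un-treated pair added, which chose this miRNA, it was -3.09. The number of members called was 1, and it was 0 to 1 when each pair was left out, with 0 without the pair at 120 hours of lenalidomide, and 0 in the exact sign-flip test, whose smallest p is 0.0625. That of miR-514a-3p ran from -1.90 to -1.06 and passed in none. Calls over all assays were 4, against 7 with RNU6-2 alone, 9 with the un-treated pair added, and 1 without the condition as a block or without the pair at 120 hours.

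Of the treatment contrasts, AGO2 shRNA had 2 members called in limma with RNU6-2 alone (miR-509-3p and miR-513a-5p, adjusted p = 0.0350 and 0.0203). Without the My5.CRBN shRNA array, miR-513a-5p had a log2 fold change of -2.17. That value rests on the My5.LV shRNA array alone and on the un-treated arrays that chose miR-513a-5p. Lenalidomide for 120 hours had 2 with a cap of 32, which left 4 members tested, beside 37 of 303 assays called. Without the My5.LV array at 120 hours, miR-514a-3p had a log2 fold change of -3.04, from the My5.CRBN well at the cap. Over all assays, AGO2 shRNA had 110 calls, against 182 with RNU6-2 alone, 11 with the miRNA mean, and 0 when the un-treated My5.LV, the un-treated My5.CRBN or the My5.LV shRNA array was left out. Lenalidomide for 120 hours had 29, against 11 and 14 without the un-treated My5.LV or My5.CRBN array and 16 without the My5.LV array at 120 hours. AGO2 cDNA with lenalidomide had 0, against 20 with RNU6-2 alone. Other alternatives for the 3 contrasts without a call gave 0 to 2. The count of single differences past 3 fold, 23 of 100, stayed within 1.5 times under 5 alternatives, and no called direction reversed. These differences share arrays, and many use the un-treated arrays that chose miR-513a-5p and miR-508-5p. A share over all assays was not computed for the same set of pairs. The count therefore cannot be read as particular to the cluster. The labels carry no replicate numbers, so none was used as a block, and the arrays were paired by condition or by line in the main fits. miR-514a-3p was not tested with a cap of 32. No assay in duplicate wells lay near the Ct of most members, so their well to well variation is not known. The causes of these changes were not tested.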
